A study of Mus musculus with 12 samples.

Results

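The 8 genes described here encode receptors for extracellular nucleotides and adenosine and the enzymes that turn one into the other. They were chosen by symbol, *P2rx4*, *P2rx7*, *P2ry6*, *P2ry14*, *Adora2a*, *Adora3*, *Entpd1* and *Nt5e*, out of 55401 genes counted, and all 8 were among the 16451 genes that passed the filter on low counts. CD45int CD11b+ microglia were sorted from mouse brain on day 3 after surgery and their RNA was sequenced in 12 libraries, with 3 libraries in each group. The groups were WT mice and mice lacking HDAC3 in microglia (miKO), each after sham surgery or after stroke (WT-Sham and WT-tFCI, miKO-Sham and miKO-tFCI). tFCI is transient focal cerebral ischemia, here an occlusion of the middle cerebral artery for 60 min, and Sham mice had surgery without it. WT mice were CX3CR1 wt/wt:HDAC3 loxp/loxp and HDAC3-miKO mice were CX3CR1 CreER/wt:HDAC3 loxp/loxp, so that all groups carried the floxed *Hdac3* alleles while only miKO mice carried a Cre driver and had a single intact *Cx3cr1* allele. Knockout was induced with tamoxifen at 6 to 8 weeks of age, surgery followed at least a month later, only males were used, and each library combined the cells of 3 to 4 hemispheres. The labels place replicate 1 of every group in batch 1 and replicates 2 and 3 in batch 2, and do not say what a batch shared.

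Damaged cells release ATP and other nucleotides, which P2X channels and P2Y receptors on neighbouring cells sense. On the cell surface ENTPD1, also called CD39, strips ATP and ADP down to AMP, and NT5E, also called CD73, turns AMP into adenosine, which then acts on adenosine receptors. Resting microglia are known for their P2Y receptors and CD39, through which they watch for nucleotides leaking from injured tissue.

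Libraries held 7697864 to 9452222 counts on genes, with 20769 to 24279 genes detected. Levels are given as CPM, the read count scaled to library size with TMM factors. *Hdac3*, the targeted gene, was lower in every miKO library than in any WT library of the same surgery, at 20.9 to 25.8 CPM in miKO-Sham against 35.0 to 46.4 in WT-Sham and at 27.1 to 36.0 in miKO-tFCI against 43.9 to 54.0 in WT-tFCI. Counts were summed over the whole gene, so a transcript lacking only the floxed exons could still be counted. All 10 microglia markers were detected in every library, and their summed level was 26631 to 31532 CPM in WT-Sham, 20661 to 25307 in miKO-Sham, 20034 to 21031 in WT-tFCI and 10009.5 to 16263 in miKO-tFCI. miKO-tFCI replicate 1 stood apart, with the lowest microglial sum and the highest sums of endothelial and mural (204 CPM), neuron (153 CPM), dendritic cell (333 CPM), monocyte (930 CPM) and astrocyte (566 CPM) markers of the 12 libraries. WT-tFCI replicate 1, of the same batch, ranked next in each of these 5 sums. miKO-Sham replicates 1 and 2 carried the same code in the names of their deposited files and were the closest pair of replicates by a chi-square of their counts, at 2.85 per degree of freedom against 3.75 to 85.8 for other pairs. They differed by more than sampling noise and were counted separately, but whether they came from the same cells was not tested, and if they did, miKO-Sham would hold 2 independent samples. The calls of the 8 genes in comparisons with miKO-Sham are therefore also given without each of these libraries, and those of other genes are not.

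*P2rx7* and *P2rx4* lie next to each other on the plus strand of chromosome 5 (GRCm38), *P2rx7* (ENSMUSG00000029468.17) at chr5:122643911-122691432 and *P2rx4* (ENSMUSG00000029470.15) at chr5:122707544-122729738, with 16111 bp between them. *P2ry6* (ENSMUSG00000048779.5) is at chr7:100937630-100974649 on the minus strand and *P2ry14* (ENSMUSG00000036381.13) at chr3:59113855-59153618 on the minus strand, inside the span of *Med12l* but without shared exonic bases. *Adora2a* (ENSMUSG00000020178.6) is at chr10:75316877-75334784 and *Adora3* (ENSMUSG00000000562.5) at chr3:105870858-105908926, both on the plus strand, and 20.9% of the exonic bases of *Adora3* also belong to *Tmigd3*, where reads cannot be given to either gene. *Entpd1* (ENSMUSG00000048120.16) is at chr19:40612366-40741602 and *Nt5e* (ENSMUSG00000032420.8) at chr9:88327197-88372092, both on the plus strand. None of the 8 genes shares exonic bases with a gene on the other strand in GENCODE M21.

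RefSeq promoter windows, from 250 bases before to 50 after a transcription start, were on hand for 6 of the 8 genes, and *P2ry6* and *Adora2a* had none. Shown are that of *P2rx4* and the first of 2 of *P2rx7*. Of these neighbours *P2rx7* was called lower after tFCI and *P2rx4* higher in miKO-Sham. Also shown are the first of 2 of *Entpd1* and that of *Nt5e*, successive enzymes whose levels went opposite ways. Each is written 5′ to 3′ on the gene's own strand from GRCm38.p6, at chr5:122707294-122707593, chr5:122643677-122643976, chr19:40612116-40612415 and chr9:88327359-88327658, all plus strand. Capitals mark matches on either strand to GGAAGT, the core bound by ETS factors such as the microglial regulator PU.1, to TGANTCA, the AP-1 motif, or to GGGCGG, the GC box.
P2rx4 promoter: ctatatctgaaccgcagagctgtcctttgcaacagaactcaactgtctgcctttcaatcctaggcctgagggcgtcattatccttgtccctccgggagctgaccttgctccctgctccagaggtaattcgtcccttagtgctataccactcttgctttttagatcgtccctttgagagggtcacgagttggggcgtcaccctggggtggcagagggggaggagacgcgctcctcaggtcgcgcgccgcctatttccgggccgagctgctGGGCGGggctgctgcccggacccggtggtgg
P2rx7 promoter: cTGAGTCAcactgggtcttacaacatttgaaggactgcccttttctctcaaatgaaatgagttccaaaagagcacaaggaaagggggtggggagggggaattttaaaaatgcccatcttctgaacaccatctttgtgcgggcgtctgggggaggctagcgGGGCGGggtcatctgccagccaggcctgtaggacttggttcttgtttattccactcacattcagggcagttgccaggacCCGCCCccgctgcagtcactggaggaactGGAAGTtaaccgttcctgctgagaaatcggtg
Entpd1 promoter: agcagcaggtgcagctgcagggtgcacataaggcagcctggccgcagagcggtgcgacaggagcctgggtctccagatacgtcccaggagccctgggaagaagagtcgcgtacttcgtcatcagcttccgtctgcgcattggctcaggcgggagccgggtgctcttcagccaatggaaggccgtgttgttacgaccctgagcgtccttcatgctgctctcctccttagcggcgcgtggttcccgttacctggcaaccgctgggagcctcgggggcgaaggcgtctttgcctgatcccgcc
Nt5e promoter: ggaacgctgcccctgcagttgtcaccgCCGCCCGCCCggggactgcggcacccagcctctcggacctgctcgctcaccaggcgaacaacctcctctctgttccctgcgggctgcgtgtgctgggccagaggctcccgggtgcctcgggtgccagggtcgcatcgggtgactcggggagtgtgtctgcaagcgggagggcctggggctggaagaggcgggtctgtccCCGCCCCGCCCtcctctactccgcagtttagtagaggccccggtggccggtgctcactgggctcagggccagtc
Of all 32851 mouse windows of this kind, 23.8% held GGAAGT, 7.81% TGANTCA and 35.7% GGGCGG. The first *P2rx7* window held all 3 motifs, with 1 ETS core, 1 AP-1 match and 2 GC boxes. Its second window, not shown, held 1 ETS core and no AP-1 match or GC box. The *P2rx4* window held 1 GC box and neither of the others. *Nt5e* had 4 GC boxes, in overlapping pairs, in a window of 71.0% G and C. The first *Entpd1* window held none of these letters although it was 64.0% G and C with 23 CpG, the same CpG count as *Nt5e*. A match describes letters and not a bound site.

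CPM were divided by exonic length in kb, without bases shared with other genes, to compare levels between genes. On this scale *Entpd1* was highest in WT-Sham at 104 ± 3.35 CPM per kb (SD, n = 3), and *P2ry6* followed at 96.7 ± 3.72. *P2rx7* (mean 26.9, libraries 24.8 to 28.8), *Adora3* (19.2 ± 5.33) and *P2rx4* (15.8 ± 0.819) came next, and the ranges of *Adora3* overlapped with those of both of its neighbours in that order. *P2ry14*, *Nt5e* and *Adora2a* lay far lower, at 0.0412, 0.0306 and 0.0112 CPM per kb, and rested on 12, 7 and 1 counts in the 3 libraries together. After tFCI the order at the top changed in both genotypes. In WT-tFCI *P2ry6* was at 84.3 ± 7.82 CPM per kb and *Entpd1* at 42.7 ± 1.28, and in miKO-tFCI they were at 66.2 ± 19.1 and 42.9 ± 10.8, with overlapping ranges in the latter group.

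**Figure D1:**
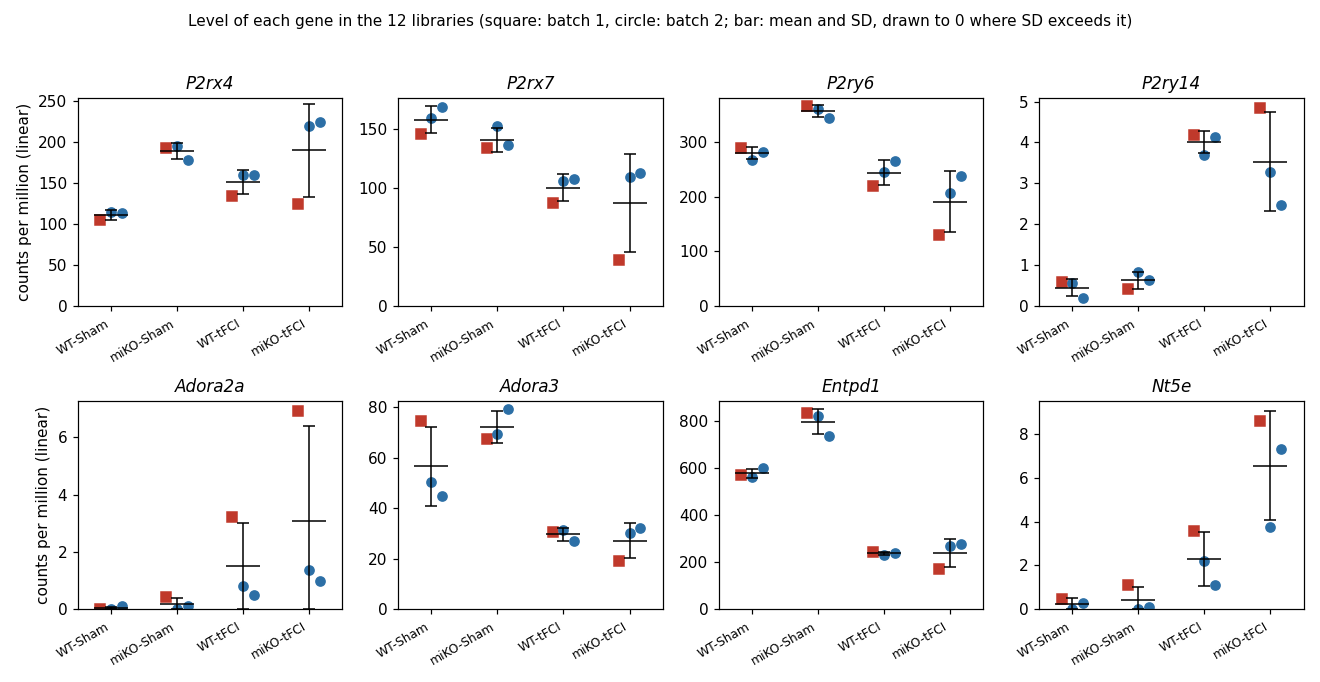
Level of each gene in CPM on a linear axis (y) in the 4 groups (x), with squares for batch 1, circles for batch 2 and bars for mean and SD (n = 3). *Entpd1* fell from 564 to 833 CPM in the Sham libraries to 170 to 278 in the tFCI libraries, while *P2ry14*, *Nt5e* and *Adora2a* rose from near 0, and the batch 1 library of miKO-tFCI lay apart for most genes.

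To ask how tFCI changed these genes, each genotype was compared with its own Sham group, and to ask how HDAC3 deficiency changed them, the genotypes were compared within Sham and within tFCI. The comparisons share libraries and are not independent. A call asked for an adjusted p (Benjamini-Hochberg) below 0.05 in edgeR's quasi-likelihood test and a log2 fold change beyond 0.58 in either direction. In WT-tFCI vs. WT-Sham, 3 of the 8 genes were called higher and 3 lower, where 20.9% of all genes tested were called higher and 11.7% lower. In miKO-tFCI vs. miKO-Sham, 3 were called higher and 4 lower, against 21.9% and 13.9% of all genes. The 3 called higher, *P2ry14*, *Nt5e* and *Adora2a*, passed the filter on low counts through tFCI libraries, so they could hardly be called lower. In miKO-Sham vs. WT-Sham, 1 was called higher and 0 lower, where 8.58% and 6.8% of all genes were called. In miKO-tFCI vs. WT-tFCI, edgeR called 0 of 8, with 2 at an unadjusted p under 0.05 and 1 called by DESeq2, where 4.08% of all genes were called higher and 4.71% lower. For the interaction of genotype and surgery, edgeR called 0 of 8, with 1 at an unadjusted p under 0.05 and 1 called by DESeq2, where 1.25% and 2.57% of all genes were called. The median log2 fold change of the 8 genes in these 5 comparisons, in the order given, was 0.12, -0.40, 0.47, -0.07 and -0.48, beside 0.02, 0.03, 0.04, 0.04 and -0.02 over all genes tested. Of the 10 microglia markers, 6 were called lower after tFCI in WT mice and 10 in miKO mice, and 0 higher in either. Their median log2 fold change was -1.05 in WT and -1.14 in miKO. Whether the falls of the purine genes were part of this wider fall was not tested. In these bulk libraries, fewer cells of a type and less RNA per cell cannot be told apart. The paper describes 3 biological replicates a group, and whether miKO-Sham replicates 1 and 2 were independent was not tested.

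**Figure D2:**
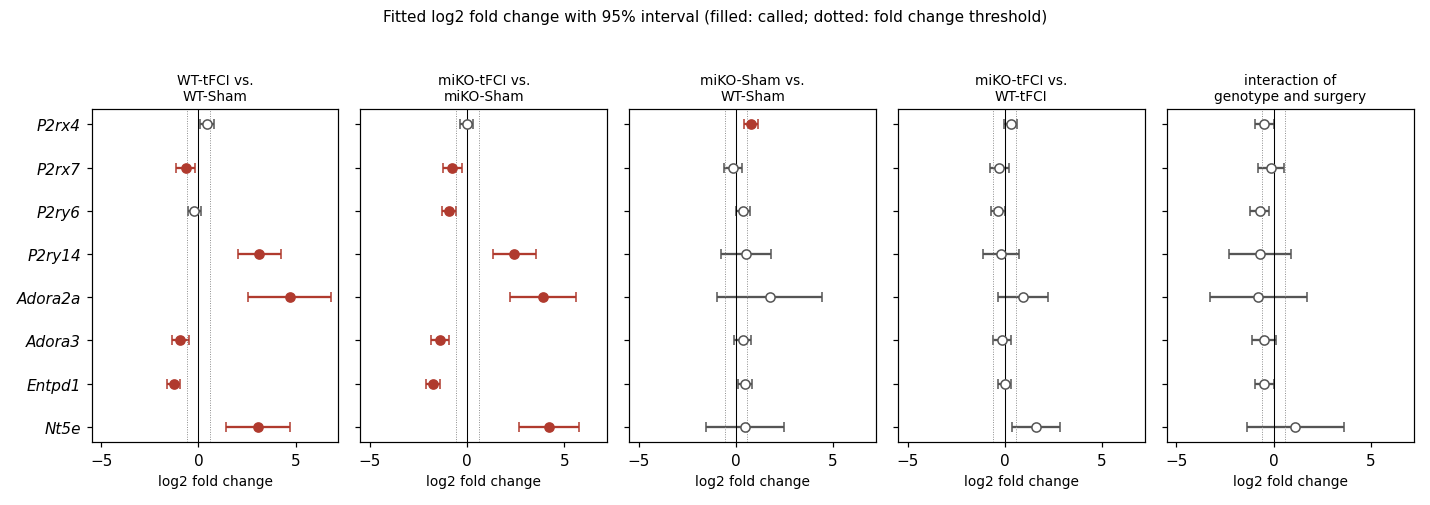
Fitted log2 fold change (x) of each gene (y) with its 95% interval in the 5 comparisons, filled where called and with dotted lines at the fold change threshold of 0.58. *Entpd1*, *Adora3* and *P2rx7* were called lower and *P2ry14*, *Nt5e* and *Adora2a* higher after tFCI in both genotypes, *P2ry6* was called lower in miKO mice, and *P2rx4* was called in miKO-Sham vs. WT-Sham.

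*P2rx4*, an ATP-gated cation channel that is largely held in lysosomes, was the 1 gene of the 8 called between genotypes in Sham. It was at 105, 115 and 114 CPM in WT-Sham and at 193, 196 and 178 in miKO-Sham. All 3 miKO-Sham libraries lay above all 3 WT-Sham libraries, a 1.71-fold higher level (log2 fold change 0.77 ± 0.16 SE, adjusted p = 0.00326 with edgeR). Within batch 1 the difference of log2 CPM was 0.88 and within batch 2 it was 0.70. The call held without miKO-Sham replicate 1 (0.61, adjusted p = 0.0276) and without miKO-Sham replicate 2 (0.81, adjusted p = 0.0076). In WT-tFCI *P2rx4* was at 134, 160 and 159 CPM, above every WT-Sham library, but the log2 fold change of 0.44 ± 0.16 was under the fold threshold although its edgeR adjusted p was 0.0409. In miKO-tFCI it was at 125, 220 and 225 CPM. Replicate 1 lay below every miKO-Sham library and the other libraries above them all, and the fitted log2 change against miKO-Sham was -0.03 ± 0.16, with a 95% interval from -0.37 to 0.31. It was -0.63 within batch 1 and 0.25 within batch 2, and 0.15 in the fit without miKO-tFCI replicate 1. Between the stroke groups the log2 fold change was 0.31 ± 0.16 (edgeR adjusted p = 0.238), and without that library it was 0.50 with an adjusted p of 0.0333, still under the fold threshold.

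*P2rx7*, the ATP-gated channel that opens at high ATP and drives inflammasome activation, fell after tFCI. It was at 145, 159 and 169 CPM in WT-Sham and at 87.0, 106 and 107 in WT-tFCI, with no overlap (log2 fold change -0.66 ± 0.22, edgeR adjusted p = 0.0274). This call rested on few libraries. The adjusted p was 0.0983 without WT-Sham replicate 1, 0.0622 without WT-tFCI replicate 2 and 0.0577 without WT-tFCI replicate 3, and the direction was the same in each. In miKO-Sham *P2rx7* was at 133, 152 and 136 CPM and in miKO-tFCI at 39.2, 109 and 112. The latter group was lower throughout and its replicate 1 was the lowest of all 12 libraries (log2 fold change -0.77 ± 0.22, edgeR adjusted p = 0.0122). Without miKO-tFCI replicate 1 the log2 fold change was -0.45 with an adjusted p of 0.0188, which is under the fold threshold, and without miKO-Sham replicate 1 it was -0.62 with an adjusted p of 0.0642. Without miKO-Sham replicate 2 it was -0.80 with an adjusted p of 0.0223. Within batch 1 the difference of log2 CPM was -1.76 and within batch 2 it was -0.37. The genotypes overlapped in Sham (log2 fold change -0.16 ± 0.22) and after tFCI (-0.27 ± 0.22), and the latter turned to 0.062 without miKO-tFCI replicate 1.

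*P2ry6*, the UDP receptor that drives phagocytosis in microglia, had the lowest p of the 8 genes for a stroke response that differs between genotypes. It was at 288, 267 and 282 CPM in WT-Sham and 220, 245 and 265 in WT-tFCI. The stroke libraries all lay lower by a small margin (log2 fold change -0.21 ± 0.16, edgeR adjusted p = 0.346). In miKO-Sham it was at 365, 360 and 343 CPM and in miKO-tFCI at 130, 206 and 237. This fall was 1.90-fold (log2 fold change -0.92 ± 0.17, edgeR adjusted p = 0.000512) and stood at -0.74 without miKO-tFCI replicate 1, -0.81 without miKO-Sham replicate 1 and -0.96 without miKO-Sham replicate 2. The miKO-Sham libraries all lay above the WT-Sham libraries (log2 fold change 0.35 ± 0.16, edgeR adjusted p = 0.163), whereas those of miKO-tFCI overlapped with those of WT-tFCI (-0.37 ± 0.17, adjusted p = 0.176). The interaction of genotype and surgery, the test of the difference between both stroke responses, was -0.72 ± 0.23 on the log2 scale. It was not called in edgeR (adjusted p = 0.115) and was called in DESeq2 (adjusted p = 0.0342), and without miKO-tFCI replicate 1 the edgeR value was -0.51 with an adjusted p of 0.185.

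*P2ry14*, the receptor for UDP-glucose and related UDP-sugars, was near the limit of detection in Sham and rose after tFCI in both genotypes. It was at 0.601, 0.560 and 0.205 CPM in WT-Sham and at 4.19, 3.69 and 4.14 in WT-tFCI. All WT-tFCI libraries lay above all WT-Sham libraries (log2 fold change 3.13 ± 0.52, edgeR adjusted p = 0.000299), from 12 counts to 101 over the 3 libraries, a ratio of 9.01 with an exact 95% counting interval of 4.94 to 18.0. In miKO-Sham it was at 0.416, 0.832 and 0.640 CPM and in miKO-tFCI at 4.85, 3.27 and 2.47, again without overlap (log2 fold change 2.42 ± 0.51, edgeR adjusted p = 0.00165). Without miKO-tFCI replicate 1 this was 2.12 and within batch 2 alone 1.92. Without miKO-Sham replicate 1 it was 2.05 and without miKO-Sham replicate 2 it was 2.71, both called. The genotypes overlapped both in Sham and after tFCI, where the log2 fold change was -0.20 with a 95% interval from -1.12 to 0.71.

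Of the adenosine receptors, *Adora3*, a receptor that inhibits adenylyl cyclase, fell after tFCI. It was at 74.5, 50.3 and 45.0 CPM in WT-Sham and at 30.8, 31.5 and 26.9 in WT-tFCI, with every stroke library lower (log2 fold change -0.93 ± 0.21, edgeR adjusted p = 0.00295). In miKO-Sham it was at 67.6, 69.5 and 79.4 CPM and in miKO-tFCI at 19.2, 30.2 and 32.3, again all lower (log2 fold change -1.41 ± 0.21, edgeR adjusted p = 0.000115). Without miKO-tFCI replicate 1 the latter value was -1.19, and without miKO-Sham replicate 1 or 2 it was -1.47 or -1.44. *Tmigd3*, with which it shares exonic bases, was at 2.26 to 5.27 CPM in the Sham libraries and 0.619 to 1.56 in the tFCI libraries. In Sham the genotypes overlapped through WT-Sham replicate 1 (log2 fold change 0.35 ± 0.20, edgeR adjusted p = 0.267), and without that library miKO-Sham was higher by 0.67 with an adjusted p of 0.0194. Within batch 1 the difference was -0.14 and within batch 2 it was 0.64. After tFCI the genotypes overlapped (log2 fold change -0.13 ± 0.21), and this turned to 0.11 without miKO-tFCI replicate 1.

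*Adora2a*, the receptor through which adenosine raises cyclic AMP, rested on few counts. WT-Sham libraries held 0, 0 and 1 counts, miKO-Sham libraries 3, 0 and 1, WT-tFCI libraries 27, 7 and 4, and miKO-tFCI libraries 67, 11 and 8. The stroke libraries lay above those of Sham in both genotypes, and replicate 1 was far above the other replicates in both stroke groups. The gene was called higher in WT-tFCI vs. WT-Sham (edgeR adjusted p = 0.00197) and in miKO-tFCI vs. miKO-Sham (adjusted p = 0.00132), but the fitted fold against so few counts depends on the prior count. The ratio of summed counts was 40.7 in WT, with an exact 95% counting interval of 6.87 to 1648, and 18.6 in miKO, with an interval of 6.99 to 69.7. The call in miKO mice held without miKO-Sham replicate 1 (adjusted p = 0.0172 with edgeR) and without miKO-Sham replicate 2 (adjusted p = 0.00469). Leaving out both stroke libraries of batch 1 took *Adora2a* below the filter. In batch 2 the stroke libraries held 0.487 to 1.38 CPM and the Sham libraries at most 0.128. Between the stroke groups the log2 fold change was 0.96 ± 0.60 (edgeR adjusted p = 0.339).

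*Entpd1*, or CD39, showed the largest fall by fold of the 8 genes in both genotypes. It was at 571, 564 and 599 CPM in WT-Sham and at 245, 230 and 239 in WT-tFCI, a 2.43-fold lower level (log2 fold change -1.28 ± 0.16, edgeR adjusted p = 2.88e-05). In miKO-Sham it was at 833, 820 and 735 CPM and in miKO-tFCI at 170, 270 and 278, a 3.36-fold lower level (log2 fold change -1.75 ± 0.17, edgeR adjusted p = 1.95e-06). No Sham library overlapped with a tFCI library in either genotype. Without miKO-tFCI replicate 1 the log2 fold change in miKO mice was -1.57, and without miKO-Sham replicate 1 or 2 it was -1.65 or -1.75. All miKO-Sham libraries lay above all WT-Sham libraries, by 0.46 ± 0.16 on the log2 scale, which did not pass the threshold in edgeR (adjusted p = 0.0587) and was under the fold threshold. After tFCI the genotypes did not differ detectably, with a log2 fold change of -0.01 and a 95% interval from -0.35 to 0.34. Its sign turned under other processing, for 1 with DESeq2 (0.0072). The interaction was -0.47 ± 0.23 with an edgeR adjusted p of 0.301, and was -0.26 without miKO-tFCI replicate 1.

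*Nt5e*, or CD73, which acts on the AMP that CD39 produces, went the other way from a very low level. It was at 0.481, 0 and 0.308 CPM in WT-Sham and at 3.59, 2.19 and 1.10 in WT-tFCI. All stroke libraries were higher (log2 fold change 3.09 ± 0.77, edgeR adjusted p = 0.00567), on 7 counts against 58, a ratio of 8.87 with a counting interval of 4.04 to 23.0. In miKO-Sham it was at 1.11, 0 and 0.128 CPM and in miKO-tFCI at 8.57, 3.77 and 7.29, without overlap (log2 fold change 4.21 ± 0.73, edgeR adjusted p = 0.000367). The summed counts rose from 9 to 172, a ratio of 16.5 with a counting interval of 8.49 to 36.7. The fitted log2 fold change was 5.99 without miKO-Sham replicate 1 and 3.74 without miKO-Sham replicate 2, both called. All miKO-tFCI libraries lay above all WT-tFCI libraries, by 1.60 ± 0.58 on the log2 scale. This difference was not called in edgeR (adjusted p = 0.0983) and was called in DESeq2 (adjusted p = 0.0429). It was 1.20 within batch 1 and 1.61 within batch 2. After tFCI *Nt5e* in CPM per kb was still far below *Entpd1*, at 0.267 ± 0.145 against 42.7 ± 1.28 in WT-tFCI and 0.761 ± 0.289 against 42.9 ± 10.8 in miKO-tFCI.

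**Figure D3:**
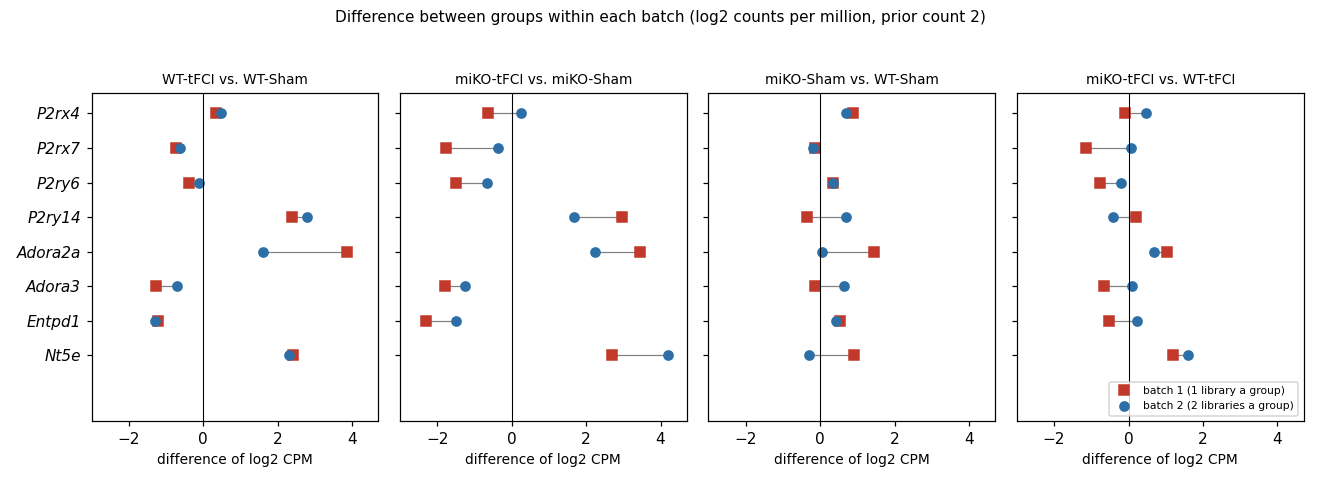
Difference of log2 CPM between groups (x) for each gene (y) within batch 1 (squares, 1 library a group) and batch 2 (circles, 2 libraries a group) in 4 comparisons. In miKO-tFCI vs. miKO-Sham the falls of *P2rx7* (-1.76 and -0.37) and *Entpd1* (-2.29 and -1.50) were larger in batch 1, and *P2rx4* went opposite ways (-0.63 and 0.25).

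The 3 genes that rose from low counts were set beside markers of other cell types. The summed level of 6 endothelial and mural markers was 16.8 to 20.6 CPM in WT-Sham, at most 15.7 in miKO-Sham, 34.7 to 133 in WT-tFCI and 81.1 to 204 in miKO-tFCI. Of these markers the pericyte gene *Rgs5* was at 0 in all WT-Sham libraries, and all 6 were detected in every tFCI library. The 6 dendritic cell markers summed to 9.30 to 14.5 CPM in WT-Sham, 12.2 to 13.6 in miKO-Sham, 15.6 to 107 in WT-tFCI and 48.1 to 333 in miKO-tFCI. By group mean *Ccr7* was the largest part of the tFCI sums, at 28.6 CPM in WT-tFCI and 105 in miKO-tFCI. It was at 0.589 and 3.38 CPM in WT-Sham and miKO-Sham. After tFCI *Flt3* and *Ccr7* were called higher in WT, these and *Zbtb46* in miKO, and *Xcr1* and *Cd209a* in neither. Neuron markers, 7 genes chosen to include those of the striatum where *Adora2a* is known to be abundant, summed to 2.35 to 4.93 CPM in WT-Sham, 11.8 to 17.5 in miKO-Sham, 11.7 to 65.6 in WT-tFCI and 20.0 to 153 in miKO-tFCI. Most of the miKO-Sham sum was *Rbfox3* (9.09 to 14.8 CPM). *Penk* was the largest part of the neuron sum in the tFCI libraries (9.26 to 147 CPM). *Drd2*, a marker of the striatal neurons that carry *Adora2a*, held 1 count in the 12 libraries, and the source of *Adora2a* was not tested. *Adora2a* and these 3 sums were each highest in replicate 1 of both stroke groups. So was the sum of monocyte markers, at 357 to 645 CPM in WT-tFCI and 423 to 930 in miKO-tFCI. It was at most 108 CPM in the Sham libraries. The astrocyte and oligodendrocyte sums were highest in replicate 1 too, at 280 and 141 CPM in WT-tFCI and 566 and 172 in miKO-tFCI. Sums of border-associated macrophage markers (175 to 269 CPM in WT-tFCI and 339 to 816 in miKO-tFCI, against 74.9 to 307 in Sham) and of neutrophil markers (145 to 196 and 656 to 897, against 46.2 to 789 in Sham) were instead lowest in those libraries of each stroke group. *P2ry14* and *Nt5e* were also highest in replicate 1 of both stroke groups, by smaller margins. *P2ry14* spread less than the endothelial and mural, dendritic cell and neuron sums, at 3.69 to 4.19 CPM in WT-tFCI and 2.47 to 4.85 in miKO-tFCI. Its mean was no higher in miKO-tFCI (3.53 CPM) than in WT-tFCI (4.01). The part of other cells in the rises of these 3 genes was not tested.

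**Figure D4:**
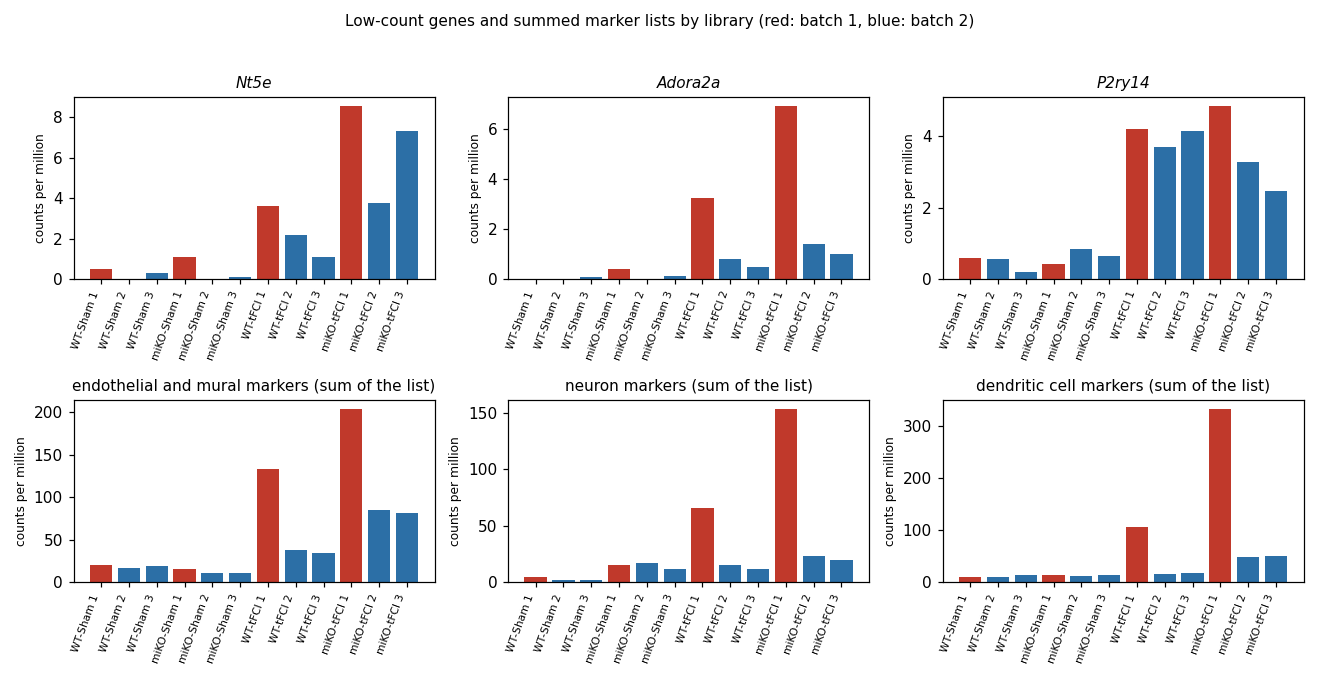
CPM of *Nt5e*, *Adora2a* and *P2ry14* and the summed CPM of 3 marker lists (y) in the 12 libraries (x), red for batch 1 and blue for batch 2. *Adora2a* reached 6.92 CPM in miKO-tFCI replicate 1 and 3.23 in WT-tFCI replicate 1, the libraries in which the 3 sums were also highest.

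Of 33 other purine signalling genes listed, 26 were tested. In WT-tFCI vs. WT-Sham 10 of these were called higher and 4 lower, where 20.9% and 11.7% of all genes were, and in miKO-tFCI vs. miKO-Sham 12 higher and 5 lower, where 21.9% and 13.9% of all genes were. Their median log2 fold changes were 0.43 and 0.97, beside 0.02 and 0.03 over all genes tested. *P2ry1*, *P2ry2*, *Adora2b*, *Entpd3*, *Enpp3* and *Slc28a2* were low in Sham and passed the filter through tFCI libraries, so they could hardly be called lower. Among the P2Y receptors, the ADP receptors *P2ry12* (log2 fold change -1.67 in WT and -1.65 in miKO) and *P2ry13* (-1.58 and -1.69), both abundant in resting microglia, fell with *Adora3* and *Entpd1*. *P2ry2*, a receptor for ATP and UTP, rose by 4.41 and 2.60 on the log2 scale. Its counts rose from 8 to 161 in WT, a ratio of 21.5 with a counting interval of 10.7 to 50.7. In miKO they rose from 28 to 198, a ratio of 6.11 with an interval of 4.10 to 9.42. The ADP receptor *P2ry1* rose from 1 count to 22 in WT, a ratio of 23.5 with a counting interval of 3.80 to 971, and from 5 to 69 in miKO, a ratio of 11.9. *Adora2b*, a further receptor coupled to cyclic AMP, rose by 3.01 and 2.48 (within batch 1 by 3.51 and 4.24, within batch 2 by 2.16 and 1.15). It rested on 11 counts against 95 in WT and 19 against 182 in miKO. *Adora1* was called in WT (1.08) and not in miKO (0.61).

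Among the other ectonucleotidases, *Enpp1*, which splits ATP directly to AMP, rose by 2.78 in WT and 3.52 in miKO on the log2 scale. *Alpl*, an alkaline phosphatase that can form adenosine, rose by 3.61 and 3.43. Its level in replicate 1 (20.0 CPM in WT-tFCI and 56.9 in miKO-tFCI) was far above that of the other stroke libraries (2.89 and 4.26 CPM in WT-tFCI, 7.92 and 13.97 in miKO-tFCI), and the difference was 5.07 and 4.46 within batch 1 against 2.10 and 2.50 within batch 2. *Entpd3* rose from 3 counts to 54 in WT, a ratio of 19.3 with a counting interval of 6.25 to 96.3, and from 10 to 166 in miKO, a ratio of 14.3, with differences of log2 CPM of 4.52 and 3.53 within batch 1 and 1.14 and 2.52 within batch 2. *Enpp3* was at 0 in all miKO-Sham libraries and at 66 counts in miKO-tFCI. With *Nt5e* and *Entpd1* included, 4 of the 6 ectonucleotidases tested were called higher in WT and 5 in miKO, beside 20.9% and 21.9% of all genes. *Entpd1* was called lower in both. *Nt5e*, *Entpd3* and *Enpp3* passed the filter through tFCI libraries and could hardly be called lower, so these counts are no test of the group. Of the genes that clear adenosine, the deaminase *Ada* rose by 1.10 and 1.60 and the kinase *Adk* by 1.58 and 1.57 on the log2 scale. Of the nucleoside transporters, *Slc29a3* fell by 0.72 and 1.11, and *Slc29a1* was not called in either genotype (-0.44 and -0.21). *Slc28a2* (2.77, on 8 counts against 69) and *P2rx6* (1.93) were called higher and *Slc17a9* (-0.80), the vesicular nucleotide transporter, lower in miKO and not in WT. The interaction test called none of these 3, nor *Adora1* (adjusted p from 0.131 to 0.690 with edgeR). Of the ATP release genes, the connexin *Gja1* rose by 3.72 and 4.30, and is also an astrocyte gene, and the channel *Calhm2* fell by 1.02 and 1.51.

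Between genotypes, 2 of these 26 genes were called higher and 1 lower in Sham, where 8.58% and 6.8% of all genes were called, and 3 higher and 0 lower after tFCI, where 4.08% and 4.71% were. In miKO-Sham vs. WT-Sham, *P2rx1*, another ATP-gated channel (log2 fold change 1.10 ± 0.22), and *P2ry2* (2.09 ± 0.62) were called higher together with *P2rx4*, and the nucleoside phosphorylase *Pnp* (-0.62 ± 0.15) was called lower. The *P2ry2* call rested on 28 counts against 8, a ratio of 4.25 with a counting interval of 1.89 to 10.8. In miKO-tFCI vs. WT-tFCI, *P2rx1* (0.76 ± 0.22), *Alpl* (1.54 ± 0.41) and *Gja1* (1.54 ± 0.34) were called higher, and the last 2 overlapped between the groups. These calls are those of edgeR. By DESeq2, 5 of the 26 genes were called in Sham and 4 after tFCI, among the latter 1 adenosine receptor. *Adora1*, not called by edgeR, was at 3.46 to 4.90 CPM in miKO-tFCI and 7.06 to 10.8 in WT-tFCI, lower without overlap. For the interaction edgeR called 0 of the 26, with 6 at an unadjusted p under 0.05 and 0 called by DESeq2.

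**Figure D5:**
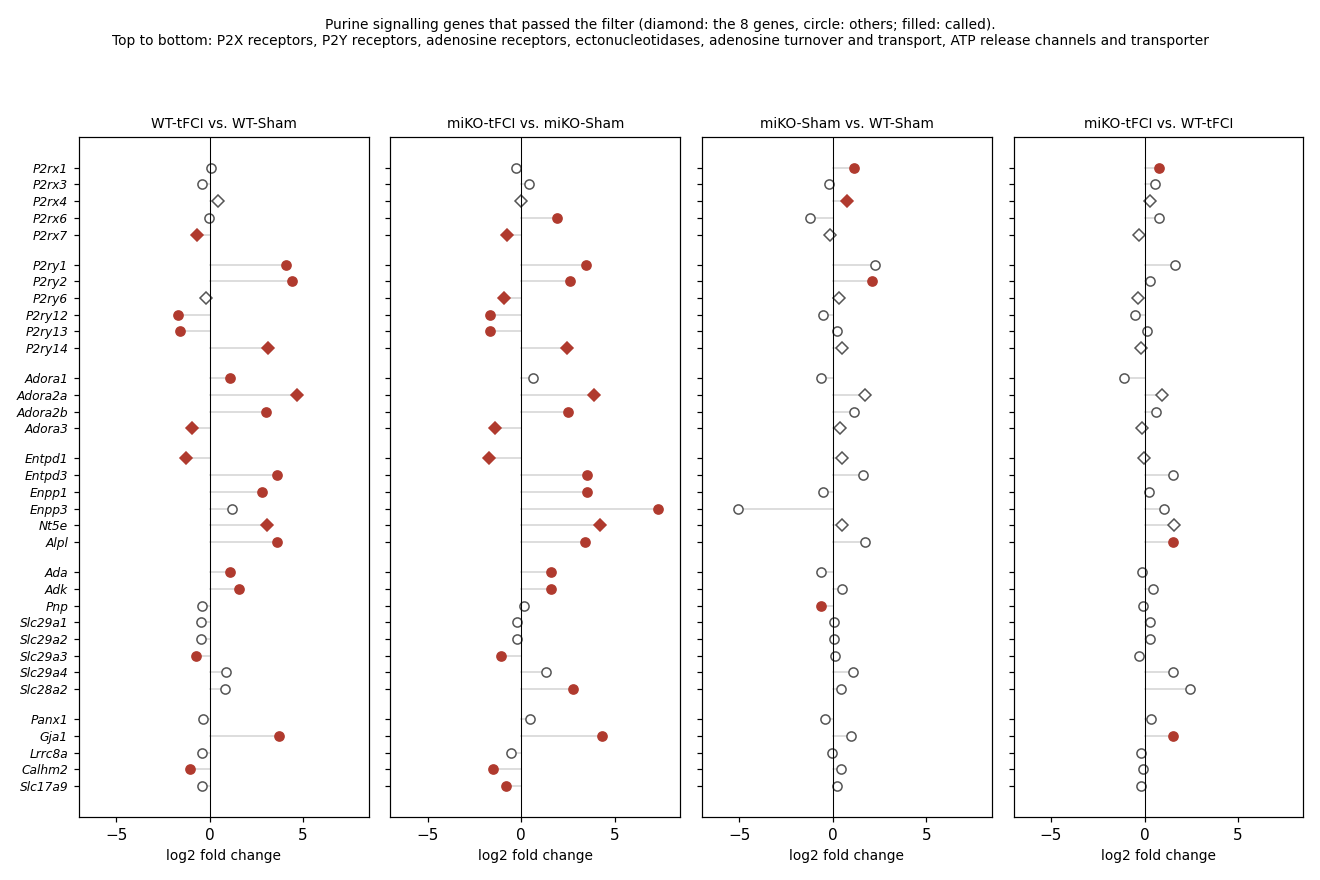
Log2 fold change (x) of the 34 purine signalling genes tested (y), diamonds for the 8 genes described here and circles for the other 26, filled where called, in 4 comparisons. After tFCI *Entpd1*, *Adora3*, *P2ry12* and *P2ry13* lay left of 0 and *Nt5e*, *Adora2a*, *P2ry14*, *P2ry2* and *Enpp1* right of it in both genotypes, and the fitted value of *Enpp3* rests on 0 counts in miKO-Sham.

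The genes whose pattern was most like that of each gene were ranked over the 12 libraries by the root mean square difference of centred log2 CPM, adjusted for batch, among 16450 genes. *Entpd1* was closest to *Vsir* (0.115) and *Soga1* (0.144), small beside its own standard deviation of 0.829. *P2rx4* was closest to *Rnpep* (0.0786) and *Itgb2* (0.104), *P2rx7* to *Mef2a* (0.131) and *Stxbp5* (0.134), and *P2ry6* to *Cflar* (0.0953) and *Pnpla7* (0.100). *Adora3* was closest to *Tmcc3* (0.174) and *Pag1* (0.177). For the genes of low counts the nearest patterns were less close, *Selenow* (0.232) and *Smtn* (0.277) for *P2ry14*, *Pknox2* (0.256) and *Ror1* (0.302) for *Adora2a*, and *Has1* (0.406) and *4930430E12Rik* (0.412) for *Nt5e*.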

How the data were processed

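RNA of sorted microglia was measured in 12 libraries. The submitters' processing notes name FastQC 0.11.9, Trim Galore, HISAT2 2.2.1, SAMtools, HTSeq 1.99.2 and GRCm38.p6, and the counts per gene were deposited by the authors without normalization. The annotation release is not given in the sources used here. Symbols and coordinates came from GENCODE M21, which matched 55141 of 55401 identifiers. Between 30.7% and 38.5% of reads lay on genes, and lines naming no gene were left out. The tests were run with edgeR 4.0.16 under R 4.3.3 (filterByExpr, TMM, quasi-likelihood test on group and batch in all 12 libraries, Benjamini-Hochberg over 16451 genes) after tests on simulated data, with DESeq2 1.42.0 as an alternative. CPM used TMM-scaled library sizes, and log2 CPM a prior count of 2. SE is the log2 fold change over the root of F. Counting intervals are exact (Clopper-Pearson), with 95% confidence, and cover counting error only. Beside the 8 genes, purine signalling genes called in a comparison, *Hdac3*, marker sums and the 2 genes of most like pattern were named. Genes and lists were chosen with earlier results of these data known. Deviations of same-numbered libraries correlated at 0.32 to 0.67 in miKO-tFCI vs. WT-tFCI and at -0.06 to 0.24 in the others, and the labels tie number 1 to batch 1.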

Additional observations from a re-analysis of the deposited data

Results flagged for a closer look

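*P2ry6* drew attention because its genotype difference ran in opposite directions in the libraries of both surgery groups. On log2 CPM adjusted for batch, every miKO-Sham library lay above every WT-Sham library and every miKO-tFCI library lay below every WT-tFCI library. The interaction of genotype and surgery was -0.72 on the log2 scale, which edgeR's quasi-likelihood test did not call (Benjamini-Hochberg adjusted p = 0.115, unadjusted p = 0.00784). Over the alternatives tried, this value ran from -0.87 to -0.51 and its adjusted p from 0.0244 to 0.270. In CPM not adjusted for batch, miKO-tFCI and WT-tFCI overlapped.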

How the results depend on the processing

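With 8 genes, counts of calls were small. With DESeq2 and with no filter on low counts, 1 gene was called in miKO-tFCI vs. WT-tFCI (*Nt5e*) and 1 for the interaction (*P2ry6*), where edgeR with the filter called 0. Fitting only the groups compared also gave 1 (*Nt5e*). Asking for 10 counts in every library removed the 3 genes of low counts and left 3 calls after tFCI in WT mice and 4 in miKO mice. Batch 2 alone gave 2 calls in miKO-Sham vs. WT-Sham, and leaving out a replicate gave 1 to 2, the added gene being *Adora3*. The replicate block in place of batch gave 6, 7, 1, 0 and 0 calls in the 5 comparisons and changed no call. Signs turned only for folds not called. *Entpd1* in miKO-tFCI vs. WT-tFCI was 0.0072 with DESeq2, 0.0071 with RLE factors, 0.017 at 10 counts, 0.0067 with no batch term, 0.18 in batch 2 alone and 0.18 with both batch 1 tFCI libraries left out, an alternative chosen after seeing the data. For *P2rx4* in miKO-tFCI vs. miKO-Sham the last 4 of these were 0.036, 0.0073, 0.23 and 0.20. In batch 2 alone and without both libraries, *P2rx7* gave 0.012 and 0.014 and *Adora3* 0.052 and 0.053 in miKO-tFCI vs. WT-tFCI, and the *P2rx7* interaction 0.21 and 0.19. *Nt5e* in miKO-Sham vs. WT-Sham was -1.11 in batch 2 alone. Leaving out each replicate gave -0.15 to 0.15 for that *P2rx4* fold, -1.37 to 0.92 for that of *Nt5e*, -0.45 to 0.062 for *P2rx7*, -0.11 to 0.19 for *Entpd1* and -0.28 to 0.11 for *Adora3* in miKO-tFCI vs. WT-tFCI, and -0.29 to 0.24 and -3.07 to 0.70 for the *P2rx7* and *Adora2a* interactions. The calls of *P2rx7* after tFCI were also lost with no batch term (adjusted p = 0.0983 in WT and 0.0764 in miKO). The cause was not tested. With 3 libraries a group and 1 to 14 counts per Sham group for *Adora2a*, *Nt5e* and *P2ry14*, their folds are imprecise.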
